A study of Mus musculus with 12 samples.

Results

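Cytokine mRNA decay factors are RNA-binding proteins that shorten the life of inflammatory transcripts. The 7 genes described here were taken by symbol from 55487 genes in the tables, as a list drawn up with earlier results of these data known: Zfp36, Zfp36l1 and Zfp36l2 of the tristetraprolin family, Zc3h12a and Zc3h12c of the regnase family, and the roquins Rc3h1 and Rc3h2. All 7 were among the 16836 genes kept for testing, and none needed a single group to pass the filter on low counts, since the lowest count of any of them in any library was 21. On mouse build GRCm38 (mm10, GENCODE M21) they lie at chr7:28376784-28380253 (Zfp36, minus strand), chr12:80107754-80113013 (Zfp36l1, minus), chr17:84183931-84187947 (Zfp36l2, minus), chr4:125118423-125127840 (Zc3h12a, minus), chr9:52111344-52168572 (Zc3h12c, minus), chr1:160906418-160974978 (Rc3h1, plus) and chr2:37370069-37422903 (Rc3h2, minus).

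Messenger RNA had been sequenced from mouse cortex 2 hr after controlled cortical impact (CCI), in which a piston strikes the exposed brain. The 4 groups held 3 libraries each. They were ipsilateral (injured side) cortex of CX3CR1cre-er/+ STING fl/fl mice, called cKO, contralateral (opposite side) cortex of cKO mice, ipsilateral cortex of CX3CR1cre-er/+ mice, called cre wt, and contralateral cortex of cre wt mice. Both genotypes therefore carried a Cre allele at Cx3cr1, a gene active in microglia, monocytes and other blood myeloid cells, and the cKO mice also carried floxed STING, the adaptor of the cytosolic DNA-sensing pathway. The series' design text writes the Cre allele of the floxed animals without "er", neither source mentions tamoxifen, and no animal age is given. All mice had CCI, so the effects of the impact and of the surgery cannot be told apart. The labels do not say which libraries come from separate animals, and a p-value here is set against the spread among libraries of a group, some or all of which may be technical.

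As background, most cytokine and immediate early transcripts carry AU-rich elements or stem-loops in the 3′ untranslated region (UTR) that mark them for rapid decay. Tristetraprolin (Zfp36) and its paralogs Zfp36l1 and Zfp36l2 bind AU-rich elements and recruit the CCR4-NOT deadenylase, which removes the poly(A) tail. Regnase-1 (Zc3h12a) is an endonuclease that cuts stem-loops of cytokine mRNAs, Zc3h12c is its paralog regnase-3, and roquin-1 (Rc3h1) and roquin-2 (Rc3h2) bind such stem-loops and recruit deadenylases. Many of these genes are themselves induced by the signals whose transcripts they later limit.

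Total counts ran from 7958931 to 33567194 per library, and cKO ipsilateral library 3 was the shallowest. On principal components of log2 CPM (counts scaled to a common library size), the component holding 30.7% of the variance separated the ipsilateral from the contralateral libraries. cKO ipsilateral library 3 stood apart on the next (14.5%), and library 3 of cre wt contralateral cortex was the most distant on the one after (9.95%). Tmem173, which encodes STING, had 1.05, 2.44 and 1.24 CPM in cKO ipsilateral libraries 1 to 3 and 2.34, 3.69 and 2.72 CPM in cre wt ipsilateral ones. It had 0.998, 1.96 and 0.762 CPM in cKO contralateral libraries and 2.49, 2.63 and 3.18 CPM in cre wt contralateral ones. Those ranges overlapped on the ipsilateral side only, and the cKO minus cre wt differences of -0.84 ± 0.35 and -1.16 ± 0.35 on the log2 scale (SE) did not pass edgeR's quasi-likelihood test (adjusted p = 0.816 ipsilateral, 1 contralateral).

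The injured side differed from the opposite side for 5 of the 7 genes in each genotype: all 3 tristetraprolin genes and both regnases rose, none fell, and the roquins did not pass the test. In cKO cortex 2.56% of the 16836 genes tested rose and 0.178% fell at the same threshold, an adjusted p below 0.05 in edgeR's quasi-likelihood test. In cre wt cortex 2.73% rose and 0.184% fell. The median log2 fold change, ipsilateral over contralateral, was 1.29 over the 7 genes in cKO and 1.21 in cre wt, where the median over all genes tested was -0.0063 and -0.0060. Averaged over both genotypes the same 5 genes passed, against a background of 5.99% of genes that rose and 2.03% that fell (8.02% in all).

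Zfp36 had the highest level of the tristetraprolin genes on the injured side. It measured 68.5, 73.1 and 82.3 CPM in cKO ipsilateral libraries 1 to 3, against 9.74, 11.1 and 10.4 CPM in cKO contralateral ones. In cre wt mice it measured 58.3, 86.2 and 79.2 CPM in ipsilateral libraries and 11.1, 11.1 and 11.6 CPM in contralateral ones. Every ipsilateral library lay far above every contralateral library of either genotype, with no overlap. The log2 fold change was 2.84 ± 0.13 in cKO (SE, 7.16-fold, adjusted p = 9.7e-09) and 2.73 ± 0.13 in cre wt (6.61-fold, adjusted p = 1.3e-08). Zfp36 ranked 3 of 16836 genes by p in both genotypes.

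Zfp36l1 and Zfp36l2, which encode paralogs with the same tandem zinc finger RNA-binding domain, rose by smaller amounts. Zfp36l1 measured 26.6, 26.5 and 30.2 CPM in cKO ipsilateral libraries, against 7.95, 10.1 and 11.3 CPM in cKO contralateral ones. It measured 19.7, 26.9 and 28.5 CPM in cre wt ipsilateral libraries, against 8.18, 8.05 and 13.7 CPM in cre wt contralateral ones. The sides did not overlap in either genotype, and cre wt contralateral library 3 was the highest of the contralateral libraries. Its log2 fold change was 1.51 ± 0.20 in cKO (adjusted p = 0.00027) and 1.33 ± 0.19 in cre wt (adjusted p = 0.00077). Zfp36l2 measured 20.8, 29.0 and 25.6 CPM in cKO ipsilateral libraries and 8.83, 11.2 and 10.9 CPM in cKO contralateral ones. It measured 23.4, 26.2 and 28 CPM in cre wt ipsilateral libraries and 9.53, 10.8 and 13.4 CPM in cre wt contralateral ones. These ranges did not overlap either, and the log2 fold change was 1.29 ± 0.15 in cKO (adjusted p = 7.4e-05) and 1.21 ± 0.15 in cre wt (adjusted p = 0.00012).

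Zc3h12a, the regnase-1 endonuclease, stood near 1 CPM on the uninjured side and had the largest log2 fold change of the 7 genes in both genotypes. It measured 8.04, 7.57 and 8.58 CPM in cKO ipsilateral libraries (223, 189 and 69 counts), against 0.969, 0.895 and 1.24 CPM in cKO contralateral ones (33, 21 and 26 counts). In cre wt mice it measured 5.98, 7.85 and 6.34 CPM in ipsilateral libraries (146, 183 and 154 counts), against 0.967, 0.898 and 0.786 CPM in contralateral ones (28, 26 and 21 counts). Every ipsilateral library was higher than every contralateral one, and the sides were far apart. The log2 fold change was 2.96 ± 0.18 in cKO (7.79-fold, adjusted p = 1.1e-07) and 2.92 ± 0.18 in cre wt (7.55-fold, adjusted p = 1.6e-07). On the log2(TPM + 1) scale, where TPM is the level corrected for transcript length and depth, it was 1.85 in cKO and 1.72 in cre wt, a scale that understates the change of low genes such as this, at 0.640 and 0.537 TPM on the contralateral sides.

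Zc3h12c, regnase-3, was higher than Zc3h12a on the contralateral side and rose by less. It measured 11.5, 14.1 and 13.3 CPM in cKO ipsilateral libraries, against 7.10, 8.14 and 8.76 CPM in cKO contralateral ones. It measured 14.6, 12.5 and 12.9 CPM in cre wt ipsilateral libraries, against 5.73, 7.33 and 9.84 CPM in cre wt contralateral ones. The sides did not overlap in either genotype, and the log2 fold change was 0.70 ± 0.17 in cKO (adjusted p = 0.0339) and 0.81 ± 0.16 in cre wt (adjusted p = 0.0114). The cKO call was lost when cKO contralateral library 1, 2 or 3 was left out (adjusted p = 0.188, 0.0993 and 0.0520, with log2 fold changes of 0.61, 0.71 and 0.77). It was also lost without cKO ipsilateral library 2 (0.63, adjusted p = 0.180) or 3 (0.68, adjusted p = 0.0806) or cre wt ipsilateral library 3 (0.70, adjusted p = 0.0511). The cre wt call was lost without cre wt contralateral library 2 (0.78, adjusted p = 0.0664). Limma on log2(TPM + 1) gave 0.47 in cKO (adjusted p = 0.510) and 0.44 in cre wt (adjusted p = 0.230).

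The roquins did not pass the test. Rc3h1 measured 41.1, 40.5 and 37.8 CPM in cKO ipsilateral libraries, against 28.7, 33.2 and 28.1 CPM in cKO contralateral ones. It measured 38.3, 30.2 and 33.8 CPM in cre wt ipsilateral libraries, against 27, 27.6 and 40.7 CPM in cre wt contralateral ones. The sides did not overlap in cKO mice, where Rc3h1 was 1 of 6 of these genes with every ipsilateral library above every contralateral one, a pattern seen in 10.8% of all genes tested, and 0 of the 7 had every ipsilateral library lower (11.1% of all genes). In cre wt mice they overlapped through contralateral library 3, and 5 of the 7 genes had fully higher ipsilateral libraries, against 10.5% of all genes, and 0 fully lower ones, against 8.70%. Its log2 fold change was 0.41 ± 0.14 in cKO (adjusted p = 0.183) and 0.10 ± 0.14 in cre wt (adjusted p = 0.797). Without cre wt contralateral library 3 the cKO difference was 0.41 with an adjusted p of 0.0232, and the average of both genotypes was 0.37 (adjusted p = 0.00368), against 0.26 (adjusted p = 0.131) with all libraries. A fit of the 2 cKO groups alone gave the cKO difference an adjusted p of 0.0256, and a fit with no filter on low counts 0.0033.

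Rc3h2 measured 40.5, 40.4 and 40.4 CPM in cKO ipsilateral libraries, against 43.8, 41.0 and 39.5 CPM in cKO contralateral ones. It measured 40.5, 30.2 and 32.1 CPM in cre wt ipsilateral libraries, against 33.4, 36.3 and 49.99 CPM in cre wt contralateral ones. The sides overlapped in both genotypes. The log2 fold change was -0.04 ± 0.14 in cKO (95% interval -0.35 to 0.28, adjusted p = 0.939) and -0.22 ± 0.13 in cre wt (95% interval -0.53 to 0.09, adjusted p = 0.493).

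**Figure D1:**
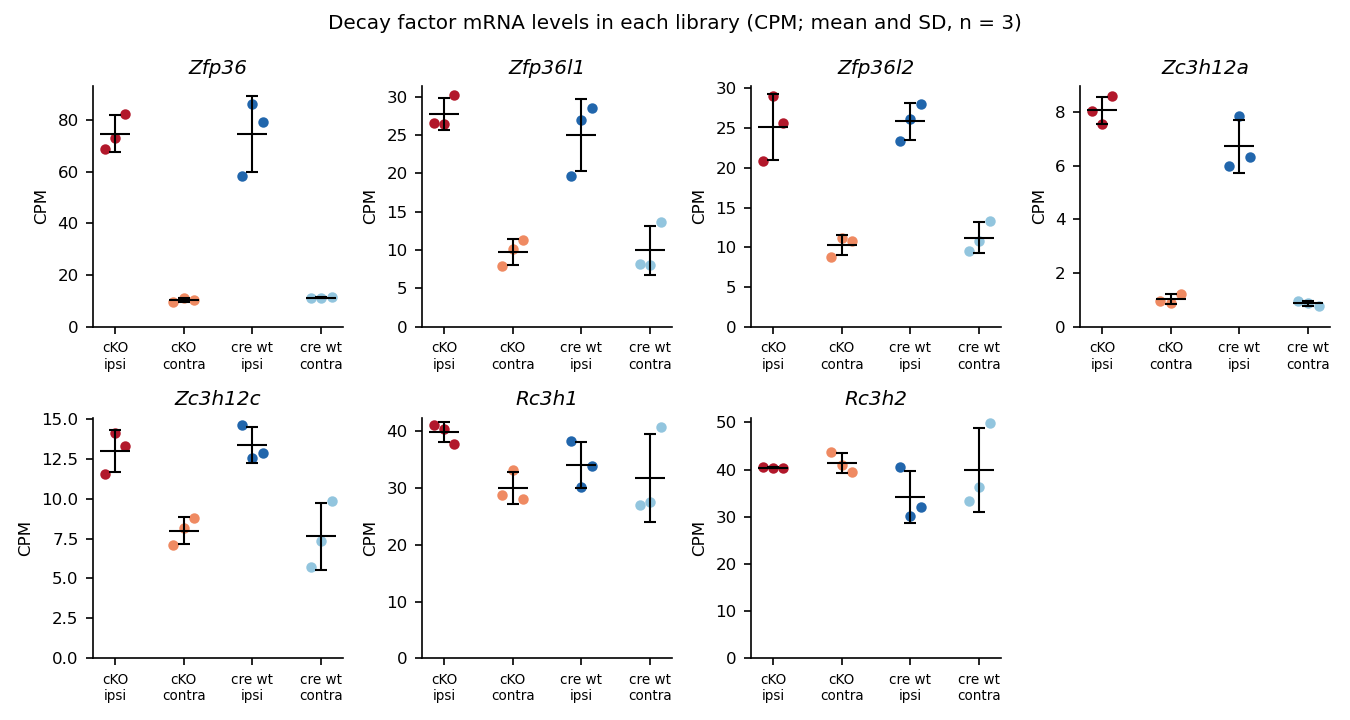
Level of each of the 7 genes in CPM (vertical axes, each from 0) in cKO ipsilateral, cKO contralateral, cre wt ipsilateral and cre wt contralateral cortex. Points are libraries, and bars are the mean and SD of 3 libraries. For Zfp36 the 3 cKO ipsilateral libraries lie between 68.5 and 82.3 CPM and the 3 cKO contralateral ones between 9.74 and 11.1 CPM, while the groups overlap for Rc3h2.

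The plot of levels by library shows non-overlapping sides for the tristetraprolin and regnase genes in both genotypes, and for Rc3h1 in cKO but not in cre wt. It also shows that cre wt contralateral library 3 was the highest contralateral library for Zfp36, Zfp36l1, Zfp36l2, Zc3h12c, Rc3h1 and Rc3h2. For Zc3h12a that library was the lowest of all 12, at 0.786 CPM.

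The order of the 7 genes changed between sides, compared per length of transcript in TPM. On the injured side Zfp36 ranked highest in both genotypes, at 46.1 ± 9.51 TPM in cKO and 40.2 ± 4.31 TPM in cre wt (SD, n = 3), with no overlap with Zfp36l1 after it. Zfp36l1 (15.3 ± 3.29 TPM in cKO, 12 ± 1.18 TPM in cre wt) and Zfp36l2 (11.5 ± 2.05 and 10.4 ± 0.374 TPM) overlapped each other and lay above Rc3h2. Rc3h2, Rc3h1 and Zc3h12a followed, with Rc3h2 overlapping Rc3h1 and Rc3h1 overlapping Zc3h12a. Zc3h12c was lowest, at 3.05 ± 0.559 TPM in cKO, apart from Zc3h12a, and at 2.77 ± 0.508 TPM in cre wt, overlapping it. On the opposite side Rc3h2 ranked highest, at 7.96 ± 0.391 TPM in cKO, above the range of Zfp36 (6.58 ± 0.648 TPM), and at 7.35 ± 2.01 TPM in cre wt, where it overlapped Zfp36 (7.08 ± 0.482 TPM). Zfp36, Zfp36l1, Zfp36l2 and Rc3h1 then followed with overlapping neighbours, and Zc3h12c and Zc3h12a came last, each apart from its neighbour.

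Summed by family, the 3 tristetraprolin genes held 72.9 ± 14.4 TPM in cKO ipsilateral and 17.0 ± 2.17 TPM in cKO contralateral cortex (SD, n = 3). In cre wt mice they held 62.5 ± 4.99 TPM on the ipsilateral and 17.9 ± 3.42 TPM on the contralateral side. The share of Zfp36 in that sum was 63.1% ± 0.975 in cKO ipsilateral and 38.9% ± 2.56 in cKO contralateral libraries, and 64.1% ± 2.12 in cre wt ipsilateral and 40.1% ± 4.62 in cre wt contralateral libraries. The sides did not overlap in these shares. The 2 regnases summed to 8 ± 1.42 TPM in cKO ipsilateral and 2.55 ± 0.283 TPM in cKO contralateral cortex, and to 6.86 ± 1.26 TPM in cre wt ipsilateral and 2.34 ± 0.510 TPM in cre wt contralateral cortex. The 2 roquins summed to 13.3 ± 1.79 TPM in cKO ipsilateral and 12.4 ± 0.791 TPM in cKO contralateral cortex, and to 9.97 ± 2.57 TPM in cre wt ipsilateral and 11.9 ± 3.23 TPM in cre wt contralateral cortex. No test was run on these sums.

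No difference between genotypes passed the test for any of the 7 genes, on either side or in the response to injury. No gene of the 16836 passed it in these comparisons (0%) with edgeR's quasi-likelihood test. An unadjusted p below 0.05 was reached by 987 genes between genotypes on the ipsilateral side, 455 on the contralateral side and 381 for the difference of the injury responses, and 0 of the 7 genes were among them in each case. With DESeq2, 10 genes passed on the ipsilateral, 3 on the contralateral side and 0 for the difference of the responses, none of them a decay factor. Ipsilateral, 0 of the 7 had CPM ranges fully higher or fully lower in cKO, against 5.60% and 5.99% of all genes.

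Ipsilateral, the cKO minus cre wt difference was nearest 0 for Zfp36, at -0.0038 ± 0.12 on the log2 scale (95% interval -0.28 to 0.27). It was widest for Zc3h12a, at 0.25 ± 0.15 (95% interval -0.10 to 0.61, adjusted p = 0.890). Rc3h2 (0.24 ± 0.14) and Rc3h1 (0.23 ± 0.14) were close to it, and Zfp36l1, Zfp36l2 and Zc3h12c lay at 0.14 ± 0.19, -0.04 ± 0.14 and -0.05 ± 0.16. Contralateral differences ran from -0.13 ± 0.15 for Zfp36l2 to 0.21 ± 0.21 for Zc3h12a. There Zfp36 was the 1 gene of the 7 with fully lower cKO libraries (3.60% of all genes tested), and 0 were fully higher (3.40%). Its highest cKO value and its lowest cre wt value both rounded to 11.1 CPM. The injury response in cKO minus that in cre wt ran from -0.11 ± 0.23 for Zc3h12c (95% interval -0.65 to 0.43) to 0.31 ± 0.20 for Rc3h1 (95% interval -0.15 to 0.77). It was 0.11 ± 0.18 for Zfp36 (95% interval -0.30 to 0.53) and 0.04 ± 0.27 for Zc3h12a (95% interval -0.58 to 0.67). These intervals leave room for genotype differences in both directions, and the widest of them, for Zfp36l1, reached 0.81.

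**Figure D2:**
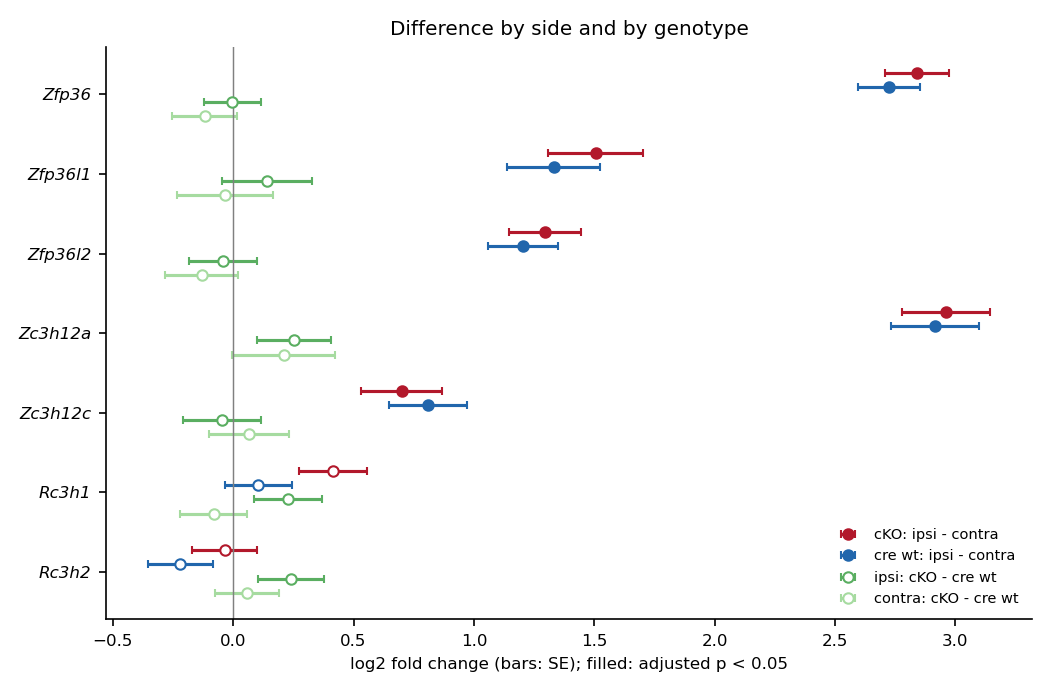
Log2 fold change of each gene (horizontal axis) by side in cKO and in cre wt (ipsilateral minus contralateral) and by genotype on each side (cKO minus cre wt), with SE bars from edgeR's quasi-likelihood fit. Filled points passed an adjusted p of 0.05: the 5 tristetraprolin and regnase genes by side, from 0.70 for Zc3h12c to 2.96 for Zc3h12a in cKO, and none by genotype.

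The plot of fold changes places Zfp36 and Zc3h12a together near 3, Zfp36l1 and Zfp36l2 between 1.2 and 1.5 and Zc3h12c below 1, in both genotypes. Rc3h2 lies near 0, and Rc3h1 lies at 0.41 in cKO and 0.10 in cre wt.

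Sequences of the 3′ UTR show where the tristetraprolin family could bind its own transcripts. The nonamer TTATTTATT is the optimal core of the tristetraprolin site in mouse Tnf, the transcript on which its role was described, and it was searched in the longest protein-coding transcript of each gene (GENCODE M21, mouse build GRCm38, which is mm10). It was present in 5 of the 7 decay factor 3′ UTRs, those of all 3 tristetraprolin genes and both roquins, with 1 site each, and in neither regnase. Of 14551 tested genes with an annotated 3′ UTR, 8.23% held at least 1. The median 3′ UTR length of those genes was 1173 bases. Rc3h1 (7181 bases), Rc3h2 (5331), Zfp36l1 (1835) and Zfp36l2 (1822) were longer, and Zfp36 (774) was shorter. Without the nonamer, Zc3h12c had 4062 bases and Zc3h12a 856. A longer 3′ UTR offers more places for a match, and the part of length in this count was not tested. The sites of the 5 genes and 1 site each from Tnf and Cxcl2 are printed 5′ to 3′ on the strand of the transcript, with the nonamer in capitals. They lie at chr7:28376951-28376979 (minus strand) in Zfp36, chr12:80108167-80108195 (minus) in Zfp36l1, chr17:84184914-84184942 (minus) in Zfp36l2, chr1:160970043-160970071 (plus) in Rc3h1, chr2:37373287-37373315 (minus) in Rc3h2, chr17:35199671-35199699 (minus) in Tnf and chr5:90905336-90905364 (plus) in Cxcl2.
Zfp36: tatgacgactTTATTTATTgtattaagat
Zfp36l1: aactgttggaTTATTTATTttagaaattc
Zfp36l2: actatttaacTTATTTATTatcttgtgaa
Rc3h1: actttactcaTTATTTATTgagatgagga
Rc3h2: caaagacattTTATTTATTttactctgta
Tnf: tatttatttaTTATTTATTtatttgctta
Cxcl2: atctatgtatTTATTTATTtattaattcc
Tnf held 5 copies, each overlapping the next, and Cxcl2 held 4, of which the one shown overlaps its neighbour, while each decay factor 3′ UTR held a single copy. The shorter core TATTTAT, which the nonamer contains, occurred 3 times in each tristetraprolin 3′ UTR and in Rc3h2, 2 times in Rc3h1 and Zc3h12c, and 0 times in Zc3h12a. Zc3h12a, with no nonamer, had the largest fold change, and the roquins, with 1 each, did not pass the test.

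The promoters of Zfp36 and Zc3h12a are shown because these 2 genes had the largest fold changes of the 7. Each is the 250 bases before the RefSeq start on build GRCm38.p6, printed 5′ to 3′ on the minus strand, which both genes use. The Zfp36 window is chr7:28379229-28379478 and the Zc3h12a window is chr4:125127882-125128131. Capitals mark matches to GCGNGGGCG, the consensus of the EGR factors, and to the CArG box of serum response factor.
Zfp36: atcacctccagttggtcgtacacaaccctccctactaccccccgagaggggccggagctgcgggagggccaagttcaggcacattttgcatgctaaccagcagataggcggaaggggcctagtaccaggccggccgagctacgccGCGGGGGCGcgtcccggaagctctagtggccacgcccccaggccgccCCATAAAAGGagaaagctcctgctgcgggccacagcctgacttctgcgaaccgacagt
Zc3h12a: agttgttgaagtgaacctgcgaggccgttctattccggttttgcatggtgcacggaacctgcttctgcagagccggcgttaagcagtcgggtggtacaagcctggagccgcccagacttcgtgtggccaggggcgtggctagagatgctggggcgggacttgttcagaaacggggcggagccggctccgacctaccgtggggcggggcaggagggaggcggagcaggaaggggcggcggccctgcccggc
Promoter windows were given for 6 of the 7 genes, with Zfp36l2 the exception. They were searched on both strands over the 250 bases before the start. Zfp36 held 1 GCGNGGGCG, found in 4.70% of all 32851 promoter windows of the same length, and 1 CArG box, found in 1.47%. Zc3h12a held neither, and had 5 copies of GGGCGG, a letter run found in 32.7% of windows, which Zfp36 held 1 time, overlapping its CArG box. TGANTCA, the consensus of AP-1 factors (6.75% of windows), was present in Zfp36l1 and Rc3h1. The NF-kB consensus (7.25%) was present in 1 of the 2 Zc3h12c windows, and TGACGTCA, the cyclic AMP response element (1.55%), in none of the 6 genes. These are matches of letters, not measured binding.

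The injury response was also compared across tested genes by number of nonamers in the 3′ UTR. In cKO mice 2.66% of 13353 genes with none rose, 4.37% of 915 genes with 1, 5.76% of 191 genes with 2 and 6.52% of 92 genes with 3 or more. In cre wt mice the shares were 2.74%, 4.92%, 5.76% and 7.61%. For the response averaged over genotypes they were 6.26%, 8.74%, 7.85% and 9.78%, which are not in the order of copy number. The median 3′ UTR length was larger in the classes with nonamers, at 1090 bases for none and 2291, 2477 and 2851 bases for 1, 2 and 3 or more, and its part in the shares was not tested. The median log2 fold change stayed within 0.02 of 0 in every class and both genotypes, and few genes in each class rose.

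**Figure D3:**
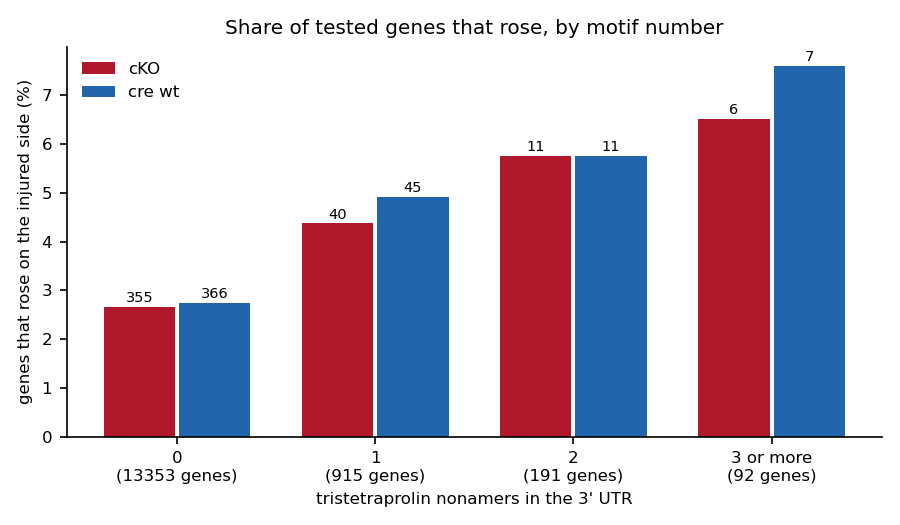
Percentage of tested genes that rose on the injured side (vertical axis) by the number of tristetraprolin nonamers in the 3′ UTR, for cKO and cre wt cortex, with the number of genes that rose above each bar. The share runs from 2.66% to 6.52% in cKO and from 2.74% to 7.61% in cre wt, and the highest class holds 92 genes.

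Transcripts known as targets of these factors, in mouse cells or tissues, mostly rose on the injured side together with them. The list of tristetraprolin targets held 17 genes, 14 of them kept, and 14 rose in cKO and 13 in cre wt, with a median log2 fold change of 4.38 and 3.09, where 2.56% of all genes tested rose in cKO and 2.73% in cre wt. These shares also stand behind the counts of the other lists that follow. Tnf, Il6, Cxcl1 and Cxcl2 had too few contralateral counts to pass the filter on low counts there. They were kept through the injured side, so their rise was close to fixed in advance, on each list that holds them. The medians of 4.38 and 3.09 rest in part on them. Fos, an immediate early transcription factor, averaged 298 ± 30.3 CPM in cKO ipsilateral and 38.2 ± 4.40 CPM in cKO contralateral cortex, and 341 ± 15 CPM in cre wt ipsilateral and 46.8 ± 9.14 CPM in cre wt contralateral cortex (SD, n = 3). Tnf, the cytokine whose transcript defined the tristetraprolin site, averaged 8.76 ± 2.39 CPM in cKO ipsilateral and 0.109 ± 0.120 CPM in cKO contralateral cortex (8 counts in all 3 libraries). In cre wt it averaged 8.04 ± 0.527 CPM ipsilateral and 0.345 ± 0.150 CPM contralateral (29 counts). The nonamer was in the 3′ UTR of 10 of the 17 listed tristetraprolin targets, and Il6, Ccl2 and Myc were among those without it. Tnf and Cxcl2, whose sites are printed above, hold more copies than most of the list.

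Among the other targets of the tristetraprolin list, Ier3, an early response gene, gained 1.74 ± 0.12 in cKO and 1.45 ± 0.12 in cre wt, and the neutrophil chemokine Cxcl1 5.81 ± 0.42 and 4.36 ± 0.40, all on the log2 scale. The Cxcl1 values rest on 15 contralateral counts over the 3 libraries in cKO and 25 in cre wt. Il6, named after its values were seen, was the kept target that passed in cKO (4.33 ± 0.84, adjusted p = 0.00797) and not in cre wt (3.35 ± 0.90, adjusted p = 0.0627), on 4 contralateral counts in each. The difference between its responses did not pass the test. Its contralateral counts lie just above the floor of 3 counts over the libraries of a group, so its fold changes are uncertain. Csf2, Il10 and Il23a were not kept, and Cxcl2 held 2 counts over the 3 cKO contralateral libraries, against 10.4 CPM on the cKO ipsilateral side, so no fold is given for it.

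Of 11 regnase-1 targets 7 were kept, and 5 rose in cKO and 4 in cre wt. Nfkbiz, a nuclear NF-kB cofactor, averaged 23.2 ± 3.58 CPM in cKO ipsilateral and 3.04 ± 0.313 CPM in cKO contralateral cortex, and 25.5 ± 2.52 CPM in cre wt ipsilateral and 3.05 ± 0.558 CPM in cre wt contralateral cortex. The NF-kB subunit Rel gained 1.93 ± 0.20 in cKO and 1.89 ± 0.20 in cre wt, and Nfkbid 1.97 ± 0.27 and 2.49 ± 0.27. The transferrin receptor Tfrc, cut by regnase-1 in iron-rich cells, did not pass (-0.0024 ± 0.14 in cKO, 0.14 ± 0.14 in cre wt). Of 8 roquin targets 7 were kept and 4 rose in each genotype: Tnf, Nfkbiz, Nfkbid and Ier3, all of them on another target list too. Over the 3 lists without repeats, 17 of 21 kept targets rose in cKO and 16 in cre wt, of 28 listed, and 0 fell. The lists were drawn up with earlier results of these libraries known, and some targets were kept through the injured side only, so these counts are not independent evidence.

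The tristetraprolin and roquin proteins recruit deadenylases of the general decay machinery. None of 43 kept genes for deadenylases (14), decapping and 5′ decay (16) and the RNA exosome (13) passed the test in either genotype, where 2.74% of all genes tested passed in cKO and 2.92% in cre wt. A count of 0 among 43 is near those shares and is no result about the machinery. Their log2 fold changes lay between -0.27 and 0.29 in cKO and between -0.24 and 0.25 in cre wt, with smallest adjusted p-values of 0.275 and 0.124. Cnot1, the CCR4-NOT scaffold to which tristetraprolin binds, averaged 83.9 ± 3.40 CPM in cKO ipsilateral and 89.9 ± 4.08 CPM in cKO contralateral cortex. Averaged over both genotypes 1 of the 43 passed, the deadenylase Cnot8 (-0.18 ± 0.05, adjusted p = 0.0442), where 8.02% of all genes passed and 2.03% fell. It was named after its value was seen.

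The BTG and TOB adaptors, small proteins that bind the CCR4-NOT deadenylases Cnot7 and Cnot8, rose: 4 of 5 in each genotype, with Btg3 the exception, against 2.56% of all genes in cKO and 2.73% in cre wt. Btg2 gained 2.12 in cKO and 2.02 in cre wt, averaging 71.4 ± 6.11 CPM in cKO ipsilateral and 16.4 ± 3.17 CPM in cKO contralateral cortex. Btg1 gained 0.90 and 0.81, Tob1 0.84 and 1.08 and Tob2 0.72 and 0.71. Limma on log2(TPM + 1) called 2 of the 5 in each genotype.

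Of 18 regulators of the decay factors, such as the kinases that phosphorylate tristetraprolin and the MALT1 complex that cleaves regnase-1 and roquins, 2 rose in cKO (2.56% of all genes) and 1 in cre wt (2.73%). Mapkapk2 (MK2), the kinase that inactivates tristetraprolin, gained 0.36 ± 0.08 in cKO (adjusted p = 0.0146) and 0.30 ± 0.08 in cre wt (adjusted p = 0.0430). Bcl10, a MALT1 partner, gained 0.57 ± 0.12 in cKO (adjusted p = 0.0148) and stood at 0.44 ± 0.12 in cre wt (adjusted p = 0.0576). Averaged over both genotypes 4 rose and 2 fell, where 5.99% of all genes rose and 2.03% fell. Besides Mapkapk2 and Bcl10 these were, named after their values were seen, Mapkapk3 (0.73 ± 0.14) and Malt1 (0.39 ± 0.11), which rose, and Ppp2r1a (-0.15 ± 0.04) and Ywhab (-0.19 ± 0.04), which fell. The counts within a genotype depended on the setting, being between 0 and 3 in cKO and between 0 and 2 in cre wt. Of 13 other proteins that bind AU-rich or related elements, 1 rose in each genotype. It was Arid5a, which stabilises Il6 mRNA and opposes regnase-1, and it averaged 30.6 ± 1.13 CPM in cKO ipsilateral and 11.6 ± 1.85 CPM in cKO contralateral cortex, and 28.1 ± 2.60 CPM in cre wt ipsilateral and 11.9 ± 2.42 CPM in cre wt contralateral cortex (log2 fold change 1.40 ± 0.14 in cKO and 1.24 ± 0.14 in cre wt). Zc3h12b, the other kept regnase paralog, did not pass (0.07 in cKO, 0.13 in cre wt).

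**Figure D4:**
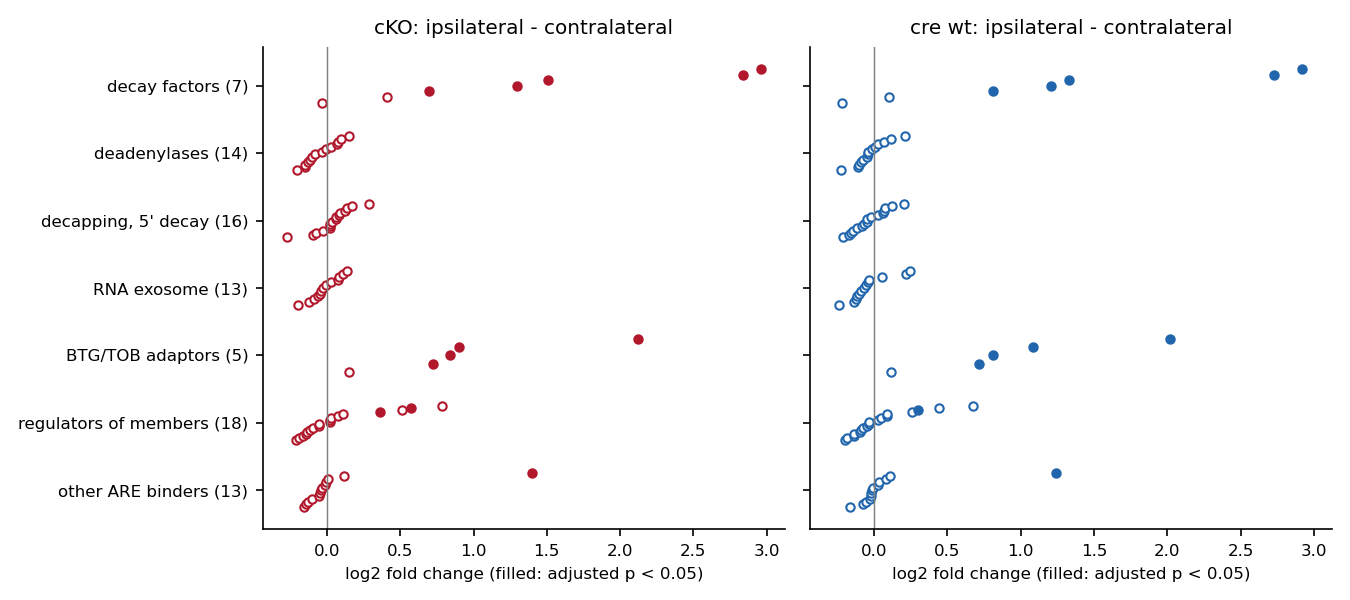
Log2 fold change (horizontal axis), ipsilateral over contralateral, of every kept gene of the decay factor list and of 6 related lists, in cKO and in cre wt cortex, with filled points at an adjusted p below 0.05. The deadenylase, decapping and exosome genes lie between -0.27 and 0.29 in cKO. The 5 decay factors that rose, 4 BTG and TOB adaptors and Arid5a stand to the right of them. So do, in cKO, Rc3h1 (0.41) and the regulators Mapkapk3 (0.78), Bcl10 (0.57), Malt1 (0.51) and Mapkapk2 (0.36), of which only Bcl10 and Mapkapk2 passed there.

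The plot of the related lists sets the 5 decay factors that rose beside the 43 machinery genes that did not pass. None of the genes in these lists passed a test between genotypes.

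The genes with profiles most like each of the 5 decay factors that rose were found by the root mean square difference of log2 CPM, centred on each gene's mean, over the 12 libraries and among the 14496 kept genes whose mean reached 1 CPM. The nearest to Zfp36 were Socs3 (0.20), Nfkbiz (0.20) and Neurl3 (0.20), with Zc3h12a ranking 5 (0.21). The nearest to Zc3h12a was Zfp36 itself, before Socs3 (0.26) and Nfkbiz (0.26). Zfp36l1 was nearest to Arid5a (0.18), Ier3 (0.20) and its paralog Zfp36l2 (0.20), and Zfp36l2 to Arid5a (0.17), Ifrd1 (0.19) and Sik1 (0.20). Zc3h12c was nearest to Klf6 (0.14), Zfp800 (0.15) and Vegfa (0.15). These distances share the same 12 libraries and are a description.

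Neutrophil and red cell markers were higher on the injured side as well, while most brain cell markers did not pass the test. Neutrophil markers summed to 24.9 to 53.4 CPM in cKO ipsilateral and 5.49 to 6.43 CPM in cKO contralateral libraries, and to 13.6 to 35.8 CPM in cre wt ipsilateral and 5.97 to 6.12 CPM in cre wt contralateral libraries. Of 12 neutrophil markers 9 were kept, of which 9 rose in cKO and 8 in cre wt, and Mmp8 was at 0 in all contralateral libraries of both genotypes, as was Camp in cre wt contralateral ones. A marker nearly absent from the contralateral side can be kept through the injured side alone, which by itself favours a rise. Red cell markers summed to 602 to 933 CPM in cKO ipsilateral and 4.76 to 81.6 CPM in cKO contralateral libraries, and to 597 to 2104 CPM in cre wt ipsilateral and 2.10 to 242 CPM in cre wt contralateral libraries. Of 5 red cell markers 5 rose in cKO and 3 in cre wt. Monocyte markers summed to 13.7 to 14 CPM in cKO ipsilateral and 8.14 to 11.4 CPM in cKO contralateral libraries, and to 11.6 to 12.8 CPM in cre wt ipsilateral and 7.49 to 11.5 CPM in cre wt contralateral libraries, with 1 of 8 kept and 0 called. F10 was at 0 in all cKO contralateral libraries and Ms4a4c in all cre wt contralateral ones. Platelet markers summed to 6.81 to 10.1 CPM in cKO ipsilateral and 3.41 to 3.95 CPM in cKO contralateral libraries, and to 7.54 to 13.9 CPM in cre wt ipsilateral and 2.62 to 3.97 CPM in cre wt contralateral libraries.

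Microglial markers summed to 306 to 382 CPM in cKO ipsilateral and 341 to 367 CPM in cKO contralateral libraries, and to 346 to 411 CPM in cre wt ipsilateral and 363 to 377 CPM in cre wt contralateral libraries, with 0 of 11 higher and 1 lower in each genotype. Astrocyte markers summed to 5052 to 5479 CPM in cKO ipsilateral and 4317 to 4713 CPM in cKO contralateral libraries, and to 5280 to 5659 CPM in cre wt ipsilateral and 4285 to 5092 CPM in cre wt contralateral libraries. Endothelial markers summed to 264 to 287 CPM in cKO ipsilateral and 221 to 238 CPM in cKO contralateral libraries, and to 260 to 339 CPM in cre wt ipsilateral and 233 to 269 CPM in cre wt contralateral libraries, where the sides overlapped. Both lists had 1 marker that rose in each genotype. Averaged over genotypes 5 of 9 astrocyte and 4 of 10 endothelial markers rose, where 5.99% of all genes tested rose. That share also stands behind the averaged counts of oligodendrocyte and platelet markers that follow. Of 9 cortical neuron markers, the labelled tissue, 0 passed in either genotype, and none was at 0 in any group (2530 to 2696 CPM in cKO ipsilateral and 2815 to 2955 CPM in cKO contralateral libraries). In cre wt their sums overlapped, at 2699 to 2897 CPM in ipsilateral and 2830 to 2995 CPM in contralateral libraries. Oligodendrocyte markers summed to 3877 to 4493 CPM in cKO ipsilateral and 2573 to 3950 CPM in cKO contralateral libraries, and to 3715 to 4783 CPM in cre wt ipsilateral and 2674 to 4004 CPM in cre wt contralateral libraries. Of 7 oligodendrocyte markers 0 passed within a genotype and 2 rose on average. Of 5 platelet markers 1 rose in cKO, 2 in cre wt and 4 averaged over genotypes. The part of these cell types in the rise of the decay factors was not tested. In bulk tissue, more cells of a type and more RNA per cell cannot be told apart.

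Reads from genes that overlap the 7 on either strand were few where those genes were in the tables: at most 2 counts in any library for Gm44710, antisense to Zfp36, and for AC132455.1, antisense to Zfp36l2. Gm26669, opposite Zfp36l1, was not analysed here, and whether reads were counted by strand is not given in the sources used here.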

How the data were processed

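RNA from 12 mouse cortex libraries (4 groups of 3) was prepared with a stranded mRNA kit, per the labels' protocols. Per the submitters' processing notes, the tools were Trim Galore 0.6.4, STAR 2.7.1a, RSEM 1.2.28 and DESeq2 1.36.0 with build mm10; annotation and strand setting are not given in the sources used here. The authors deposited estimated counts per gene as whole numbers, and TPM values, which the authors scaled to transcript length and depth; RSEM splits reads between similar genes, so close paralogs can share reads. No library was removed.

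Symbols were taken from GENCODE M21, which held 99.5% of the identifiers. The fits used edgeR 4.0.16 in R 4.3.3, with DESeq2 1.42.0 and limma 3.58.1 as alternatives. Genes were kept with filterByExpr (minimum count 10, total 15), leaving 16836, which held 99.9% or more of each library's counts, and removing 38651. After TMM scaling, 1 quasi-likelihood model in edgeR covered the 4 groups, with Benjamini-Hochberg adjustment over all kept genes and a threshold of 0.05. CPM used the scaled library sizes. The 95% intervals are the SE times the t quantile for 8 residual degrees of freedom. A floor of 3 counts was used, from 0.0894 CPM in the deepest to 0.377 CPM in the shallowest library, and covers counting error only.

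Named genes were all 7 decay factors, Tmem173, up to 4 called genes per related list by smallest adjusted p in cKO then cre wt (or 2 by mean CPM where none was called) and the 3 nearest profiles of each called decay factor. The members and lists were chosen with earlier results of these data known. Promoter sequences come from RefSeq. On simulated counts (16636 genes) changes were planted alike in both ipsilateral groups, in 50 genes per fold averaging at least 1 CPM. A true fold of 2 was recovered by side in 86% of these genes in cKO, 86% in cre wt and 96% in their average. A fold of 1.5 was recovered in 52%, 54% and 72%, and a fold of 0.5 in 78%, 76% and 92%. Unchanged genes gave 10, 10 and 9 false calls. No genotype difference was planted, so recovery in the genotype comparisons was not measured. Alternatives were other scalings, filters and tools, leaving out any 1 library, a block for the replicate number, a fit of the compared groups alone and, added after the data were seen, a fit without both cKO ipsilateral library 3 and cre wt contralateral library 3.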

Additional observations from a re-analysis of the deposited data

How the results depend on the processing

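The number of decay factors that passed stayed within 1.5 times of the reported one under every alternative run, and Zfp36, Zfp36l1, Zfp36l2 and Zc3h12a passed by side in both genotypes in all of them. The calls of Zc3h12c and Rc3h1 that changed are given with their values above; in addition Zc3h12c averaged over genotypes was lost with limma on log2(TPM + 1) (0.452, adjusted p = 0.0828), and without both cKO ipsilateral library 3 and cre wt contralateral library 3 Rc3h1 passed in cKO (0.444, adjusted p = 0.0301) and on average (0.382, adjusted p = 0.00471), as it did on average with no filter (0.265, adjusted p = 0.00800). Uncalled differences near 0 changed sign, and the cause was not tested. With limma on log2(TPM + 1) these were Rc3h1 by side in cre wt (-0.0393), Zc3h12c between genotypes ipsilateral (0.103) and between responses (0.0320), Zfp36 (0.181) and Zfp36l2 (0.117) ipsilateral and Zfp36l1 contralateral (0.0135). Scaling by library totals gave Zfp36 0.0386 ipsilateral. Without both libraries, contralateral genotype differences were 0.136 for Rc3h1, 0.255 for Zfp36l1 and 0.00949 for Zfp36l2, and differences between responses were -0.0107 for Rc3h2, -0.170 for Zfp36l1 and -0.0638 for Zfp36l2.

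With 1 library left out at a time, these ranges crossed 0. Ipsilateral genotype differences ran from -0.160 to 0.113 for Zfp36, -0.0115 to 0.238 for Zfp36l1, -0.179 to 0.0892 for Zfp36l2 and -0.126 to 0.0434 for Zc3h12c. Contralateral ones ran from -0.185 to 0.136 for Rc3h1, -0.0562 to 0.250 for Rc3h2, -0.105 to 0.286 for Zc3h12c, -0.166 to 0.255 for Zfp36l1 and -0.236 to 0.00987 for Zfp36l2. Differences between responses ran from -0.0107 to 0.322 for Rc3h2, -0.0388 to 0.174 for Zc3h12a, -0.332 to 0.0595 for Zc3h12c, -0.0367 to 0.237 for Zfp36, -0.116 to 0.307 for Zfp36l1 and -0.0528 to 0.220 for Zfp36l2. By side, Rc3h1 in cre wt ran from -0.00115 to 0.320 and Rc3h2 in cKO from -0.0704 to 0.00510.

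Libraries of equal number in different groups were not taken as pairs, since the labels do not say that they share an animal. After group means were removed, equal-numbered ipsilateral and contralateral libraries correlated at 0.0705, 0.0920 and 0.0568 in cKO. In cre wt they correlated at -0.00200, 0.0941 and 0.0457. Those of unequal number ran from -0.0725 to -0.00116 in cKO, all below the equal-numbered ones, and from -0.111 to 0.0606 in cre wt. Whether equal numbers share an animal was not tested. A fit with the replicate number as a block called the same number of decay factors in each comparison and gave Zfp36 0.00956 between genotypes ipsilateral. That block joined libraries of equal number across both genotypes, which cannot be the same animal. It is therefore no check of pairing by animal, and a block within each genotype was not fitted. Counts over all genes moved more. Genes that passed by side numbered 461 in cKO and 491 in cre wt, against 174 and 139 with limma on log2(TPM + 1) and 968 and 991 with no filter, 766 in cre wt with DESeq2 and 968 in cre wt without both libraries. They numbered 280 and 277 in cKO without cKO contralateral library 1 or ipsilateral library 2, and 250, 861, 281 and 310 in cre wt without cre wt contralateral library 2 or 3 or ipsilateral library 2 or 3. The average over genotypes had 1350, against 404 with limma on log2(TPM + 1) and 883, 2075 and 876 without cKO contralateral library 1, cre wt contralateral library 3 or cre wt ipsilateral library 2. Between genotypes, 223 and 96 genes passed on the ipsilateral and contralateral side with no filter, and 72 for the difference of responses.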
